A study of Sus scrofa with 6 samples.

Results

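MicroRNAs (miRNAs) are short RNAs that lower the output of messenger RNAs they pair with, mainly through a few bases near their 5′ end called the seed. ssc-miR-26a and ssc-miR-101 are porcine forms of conserved miRNAs known from other species to target EZH2, the catalytic subunit of Polycomb repressive complex PRC2, which silences genes by methylating histone H3. Both are also known to target MITF, the transcription factor that drives the genes of melanin synthesis in pigment cells. They were taken as the rows with these names in the table, 2 of 898 miRNAs listed and of 280 with a miRBase-style name, and were chosen by a rule that used their levels in white and black skin. The contrast between the skin colours is therefore given for them as a description, and no p-value of theirs is reported.

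The libraries hold small RNA from the skin of Xiang pigs, a breed of Sus scrofa, with hair removed and the tissue kept in a preservative. There were 3 libraries of white skin (S02, S06 and S07) and 3 of black skin (S03, S04 and S05). The labels give strain, tissue and colour only, and nothing on animal, body site, sex, age or batch. They do not state whether each library is a different animal. The p-values below thus set the difference between the colours against the spread between these libraries only, a spread that may be technical. The series was made to look for mRNAs and miRNAs that affect melanin formation.

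Levels are in RPM, reads of a miRNA scaled to 1e+06 reads over all miRNAs listed, and between 6454685 and 10165949 whole reads were recovered per library. The skin epithelial marker ssc-miR-205 measured 14237 ± 2596 RPM in black skin against 19830 ± 4277 RPM in white skin (SD, n = 3), and 2 of 7 epithelial marker names were matched to rows. Of the 2 pigment cell names, miR-204 was matched. Skin is a mixture of cell types, and in such bulk samples fewer cells of a type and less RNA per cell cannot be told apart.

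The miR-26a precursor looked up here lies within a gene of the CTDSP family of phosphatases. Other loci that may yield the same mature miRNA were not sought. In the RefSeq annotation of Sscrofa11.1, MIR26A is on chromosome 5 at 23112744 to 23112827, inside the span of CTDSP2 (23111366 to 23132811). The name miR-101 covers precursors at separate loci. MIR101-1 is on chromosome 1 at 217152783 to 217152873, inside the span of RCL1 (217142965 to 217204960), a gene of ribosomal RNA processing. MIR101-2 is on chromosome 6 at 147330891 to 147330971, inside the span of JAK1 (147320288 to 147567188), a kinase of cytokine signalling. The table has 1 row for ssc-miR-101, so the share of each locus in its reads cannot be told apart, and the annotation table used gives neither exons nor strand.

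ssc-miR-26a was one of the most abundant miRNAs of the skin. It stood in white skin at 45513 RPM (S02), 26682 RPM (S06) and 29775 RPM (S07), and in black skin at 46426 RPM (S03), 48638 RPM (S04) and 48275 RPM (S05). The black libraries lay close together, the white library S02 lay just below them, and S06 and S07 were well lower. The group means were 47780 ± 1186 RPM in black skin against 33990 ± 10098 RPM in white skin (SD, n = 3), a 1.41-fold higher level in black skin. The difference was 0.53 on the log2(RPM + 1) scale, where the SD between libraries was 0.41 in white and 0.04 in black skin.

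ssc-miR-101 was less abundant and differed more between libraries. It stood in white skin at 3491 RPM (S02), 809 RPM (S06) and 1355 RPM (S07), and in black skin at 3850 RPM (S03), 4813 RPM (S04) and 4516 RPM (S05). As for ssc-miR-26a, S02 lay nearer to the black libraries than to the other white ones, and S06 was lowest. The group means were 4393 ± 493 RPM in black skin against 1885 ± 1417 RPM in white skin (SD, n = 3), 2.33-fold higher in black skin. The difference was 1.48 on the log2(RPM + 1) scale, beside an SD between libraries of 1.07 in white and 0.17 in black skin.

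**Figure D1:**
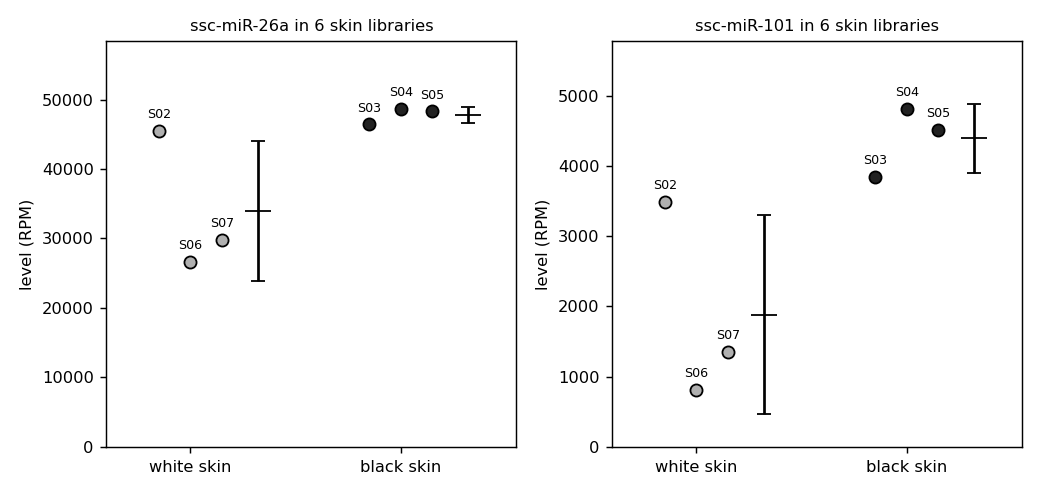
Level in RPM (y axis, linear from 0) of ssc-miR-26a (left) and ssc-miR-101 (right) in each library of white and black skin, with the mean and SD of 3 libraries beside the points. In both panels the white library S02 (45513 and 3491 RPM) sits just below the black libraries, and S06 and S07 sit lower.

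Counting error was small beside these gaps. The lowest value, ssc-miR-101 in S06, rests on 5219 reads, with an exact 95% Poisson interval of 787 to 831 RPM that covers counting error only. For ssc-miR-26a no library had fewer than 172227 reads. The spread between white libraries was thus far wider than the counting interval, with a highest to lowest ratio of 1.71 for ssc-miR-26a and 4.32 for ssc-miR-101, against 1.05 and 1.25 in black skin.

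Neither miRNA overlapped between the groups, as was so, higher in black skin, for 61 of the 454 miRNAs tested (13.4%). The margin was narrow for both. The lowest black library exceeded S02 1.02-fold for ssc-miR-26a and 1.10-fold for ssc-miR-101. Over all tested miRNAs 32 were called by limma at an adjusted p under 0.05 (7.05%), 18 of them higher in black skin (3.96%). Since ssc-miR-26a and ssc-miR-101 were chosen on this contrast, no call of theirs is reported and nothing is read from these counts.

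The white library S02 changed the size of both differences. Without it the white mean of ssc-miR-26a was 28229 RPM and that of ssc-miR-101 was 1082 RPM, so that black skin was 1.69-fold and 4.06-fold higher. On the log2(RPM + 1) scale these differences were 0.76 and 2.06. The lowest differences, 0.38 for ssc-miR-26a and 1.01 for ssc-miR-101, came without the white library S06.

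**Figure D2:**
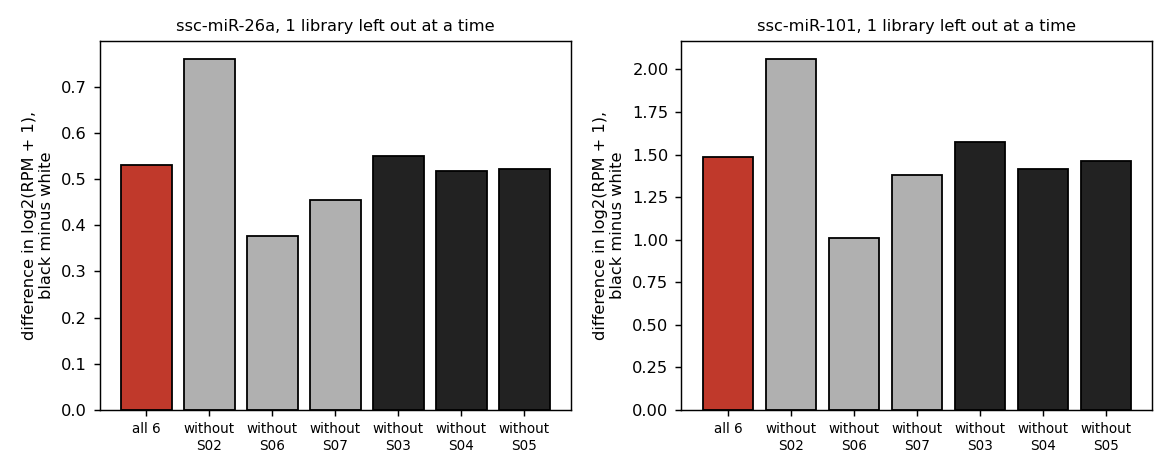
Difference in log2(RPM + 1), black minus white (y axis, from 0), for ssc-miR-26a (left) and ssc-miR-101 (right) with all 6 libraries (red) and with 1 white (grey) or black (black) library left out. The bars are tallest without S02 (0.76 and 2.06) and shortest without S06 (0.38 and 1.01). The groups did not overlap, so no bar could fall below 0.

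S02 held 1.61 times as much ssc-miR-26a and 3.23 times as much ssc-miR-101 as the mean of S06 and S07. Its log2 level lay 90.8% of the way from those libraries to the black mean for ssc-miR-26a, and 84.2% for ssc-miR-101. S02 was nearer to the black mean than to the mean of the other white libraries for 213 of the 454 miRNAs tested (46.9%). That count takes in miRNAs that hardly differed between the groups, so it does not show how common so marked a position was.

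Markers of other cell types in S02 did not all follow that pattern. The summed level of miR-143 and miR-145, known from smooth muscle, was 31922 RPM in S02, 26728 RPM in S06 and 34192 RPM in S07, against 64998 to 84502 RPM in black skin, so here S02 lay with the white libraries. That sum is mostly ssc-miR-143-3p, which was called higher in black skin (limma, adjusted p = 0.00314). The other 3 rows of that list were not called. The scarcer ssc-miR-145-3p of the same list stood at 632 RPM in S02, nearer to the black libraries (685 to 781 RPM) than to S06 (429 RPM) and S07 (434 RPM). Both arms of miR-126, the endothelial miRNA, summed to 17322 RPM in S02, 17637 RPM in S06 and 23899 RPM in S07, against 28989 to 35451 RPM in black skin. Each arm was called higher in black skin (limma, adjusted p = 0.0423 for each), as were 3.96% of all tested miRNAs. The striated muscle miRNAs miR-1, miR-133a and miR-206 summed to 459 RPM in S02, below S06 (1620 RPM), S07 (1874 RPM) and the black libraries (719 to 1383 RPM). Most of that sum is ssc-miR-1. For ssc-miR-206 alone S02 (12.6 RPM) lay among the black libraries (4.77 to 14.6 RPM) and far below S06 (106 RPM) and S07 (115 RPM).

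In summed level the blood and epithelial lists overlapped between the groups, and S02 lay within the range of the other white libraries. The 6 blood rows summed to 2027 to 5812 RPM in white and 1940 to 5481 RPM in black skin, and the epithelial rows to 15361 to 23062 RPM and 11808 to 16941 RPM. The blood sum is mostly ssc-miR-451, and single blood rows differed from it. ssc-miR-142-3p rose from 49.1 ± 24.2 RPM in white to 190 ± 78.5 RPM in black skin (SD, n = 3; limma, adjusted p = 0.0324). It was the only blood row called, and 5 were not. The more abundant arm ssc-miR-142-5p gave a log2 difference of 0.60 (limma, adjusted p = 0.433), and ssc-miR-150 gave 0.13 (limma, adjusted p = 0.869). ssc-miR-486 was at 34.4 to 52.0 RPM in white and 7.49 to 28.9 RPM in black skin (limma, adjusted p = 0.0743). The pigment cell marker ssc-miR-204 measured 57.7 to 71.1 RPM in white and 88.5 to 135 RPM in black skin, a difference that did not pass (limma, adjusted p = 0.0804). No marker row was at 0 in all libraries. The part of these cell types in the levels of ssc-miR-26a and ssc-miR-101 was not tested.

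In rank, ssc-miR-26a held its place near the top of the list in all libraries, and ssc-miR-101 moved further. Among the 280 named miRNAs ssc-miR-26a was at rank 6 in S02, 9 in S06 and 7 in S07, and in black skin at rank 5 in S03, 6 in S04 and 5 in S05. ssc-miR-101 was at rank 32, 56 and 46 in white and at rank 27, 26 and 26 in black skin.

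By mean level over the 6 libraries ssc-miR-26a was 7th among named miRNAs at 40885 ± 9919 RPM (SD, n = 6), or 4.09% of reads. It stood between ssc-miR-143-3p (49220 ± 23661 RPM) and ssc-miR-99a (32914 ± 5083 RPM), and its difference from either was within their spread over libraries. The next in order were ssc-let-7g and ssc-let-7i above, and ssc-miR-126-3p and ssc-let-7c below. ssc-miR-101 was 29th at 3139 ± 1670 RPM, or 0.314% of reads, between ssc-miR-199a-5p (3462 ± 423 RPM) and ssc-miR-451 (2830 ± 1706 RPM), again within the spread. Beyond these came ssc-miR-29a and ssc-miR-24-3p above, and ssc-miR-10a-5p and ssc-miR-146a-5p below.

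Black skin held relatively more ssc-miR-101 for each ssc-miR-26a. The RPM ratio of ssc-miR-26a to ssc-miR-101, which does not depend on the library total, was 13.0 in S02, 33.0 in S06 and 22.0 in S07, and 12.1, 10.1 and 10.7 in S03, S04 and S05 of black skin. The groups did not overlap, but S02 lay next to the black libraries and far from S06. On the log2 scale the ratio was 3.45 ± 0.13 in black skin against 4.40 ± 0.67 in white skin (SD, n = 3), a difference of -0.95, of -1.30 without S02 and of -0.63 without S06. It comes from the values that chose the 2 miRNAs and is a description. Together the 2 made up 5.22 ± 0.17% of the reads in black skin against 3.59 ± 1.15% in white skin (SD, n = 3), most of it ssc-miR-26a.

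**Figure D3:**
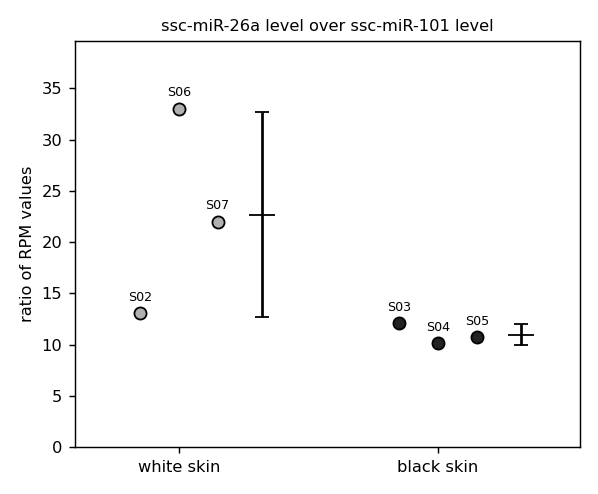
Ratio of the RPM of ssc-miR-26a to that of ssc-miR-101 (y axis, linear from 0) in each library, with the mean and SD of 3 libraries beside the points. The black libraries lie between 10.1 and 12.1, S02 at 13.0, and the other white libraries at 22.0 and 33.0.

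Among other miRNAs known to target EZH2 or its partners (the EZH2 list), 2 fell in black skin, none rose and 11 did not pass. The list held 11 names, of which 8 matched 15 rows, and 13 rows were tested. Of these, 4 differences were above 0 and 9 below, with a median difference of -0.29 against 0.00 over all tested miRNAs, of which 3.08% fell. The groups did not overlap for 6 of the 13, all lower in black skin, where 13.9% of all tested miRNAs were so. Of the 13 rows 8 are let-7 products, so the list is mostly 1 family. Both arms were kept here too, so these include ssc-let-7d-3p (0.01), the arm opposite ssc-let-7d-5p.

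ssc-let-7c, of the let-7 family that restrains growth and stem cell genes, was the first of those that fell. It stood in white skin at 28482 RPM (S02), 32530 RPM (S06) and 29472 RPM (S07), and in black skin at 16685 RPM (S03), 20805 RPM (S04) and 17221 RPM (S05). S02 lay here among the white libraries, unlike for ssc-miR-26a and ssc-miR-101. The level was 1.65-fold lower in black skin, and the log2 difference was -0.73 (standard error 0.15; limma, Benjamini-Hochberg adjusted p = 0.0318).

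ssc-miR-214, a miRNA of mesenchymal cells that targets EZH2 in muscle precursors, also fell. It stood in white skin at 415 RPM (S02), 487 RPM (S06) and 590 RPM (S07), and in black skin at 222 RPM (S03), 303 RPM (S04) and 281 RPM (S05), so that the groups did not overlap. The log2 difference was -0.88 (standard error 0.22; limma, adjusted p = 0.0408). Both calls were weak against the loss of a library: without S03, S05, S06 or S07 neither passed, and ssc-miR-214 was also lost without S04. The adjusted p reached 0.116 for ssc-let-7c (without S06) and 0.159 for ssc-miR-214 (without S03). Without S02 both passed, together with ssc-let-7i (-0.73, adjusted p = 0.0418), in a fit where 3.73% of all tested miRNAs fell.

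The most abundant rows of the EZH2 list were let-7 miRNAs, and reads of one may be counted for another, since their sequences are nearly the same. ssc-let-7i measured 43815 ± 2546 RPM in black skin against 64738 ± 17900 RPM in white skin (SD, n = 3), a difference of -0.53 that did not pass with all 6 libraries (limma, adjusted p = 0.150). ssc-let-7g gave -0.31 (adjusted p = 0.221) and ssc-let-7a -0.50 (adjusted p = 0.0804). ssc-let-7f gave -0.05 (adjusted p = 0.869). Outside the family, ssc-miR-30d gave 0.01 (adjusted p = 0.977), at 8995 ± 931 RPM in black skin against 8991 ± 1367 RPM in white skin (SD, n = 3).

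ssc-miR-144, an erythroid miRNA whose seed is closely related to that of miR-101, was scarce. It stood in white skin at 2.74 RPM (S02), 0.775 RPM (S06) and 6.49 RPM (S07), and in black skin at 5.55 RPM (S03), 3.55 RPM (S04) and 21.2 RPM (S05). The groups overlapped, S05 alone was far above the rest, and the difference of 1.24 (standard error 0.66) did not pass (limma, adjusted p = 0.284). ssc-miR-101 was 209 to 1357 times as abundant, and S05 was not its highest library.

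In summed level the rest of the list was lower in black skin, where the sum of ssc-miR-26a and ssc-miR-101 was higher. The 15 other rows of the EZH2 list held 16.3 ± 0.65% of the reads in black skin against 21.7 ± 1.58% in white skin (SD, n = 3), with ranges of 15.7% to 17.0% and 20.3% to 23.4%. That sum is mostly let-7 miRNAs, so it says little about the rest of the list. ssc-miR-30d, the most abundant row outside that family, had a log2 difference of 0.01. RPM are shares of one total, so a larger share of one miRNA lowers the shares of others, and the part of this in either value was not tested.

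Among miRNAs known to target MITF none of the 9 tested rows was called by limma (adjusted p), and 2 had an unadjusted p under 0.05. Over all 454 tested miRNAs 7.05% were called and 116 (25.6%) had an unadjusted p under 0.05. edgeR, DESeq2 and limma-voom on recovered reads called 0 as well. The list held 9 names, of which 7 matched rows, ssc-miR-26a and ssc-miR-101 not counted, and the median difference was 0.12. It names miRNAs and not arms, and both arms were kept. The rows, and so the median, thus include the scarcer arms ssc-miR-148a-5p (-0.05) and ssc-miR-148b-5p (-0.07), which may not target MITF. ssc-miR-148a-3p, the most abundant, measured 127269 ± 9303 RPM in black skin against 99483 ± 39558 RPM in white skin (SD, n = 3; limma, adjusted p = 0.327). ssc-miR-182 gave -0.52 (adjusted p = 0.138), ssc-miR-152 gave 0.38 (adjusted p = 0.224) and ssc-miR-148b-3p gave 0.25 (adjusted p = 0.496). ssc-miR-218 and ssc-miR-218b have identical values, so that the 9 rows hold 8 separate profiles, and both gave 0.12 (adjusted p = 0.869).

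**Figure D4:**
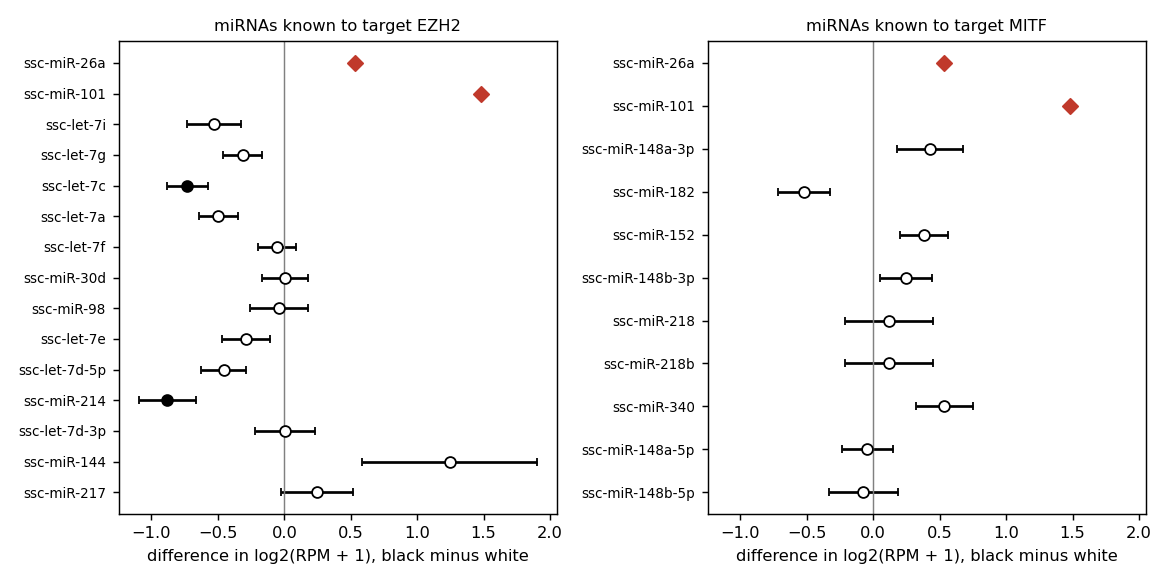
Difference in log2(RPM + 1), black minus white (x axis), for miRNAs known to target EZH2 or its partners (left) and MITF (right). Both arms are shown where named. Rows are ordered by abundance, with bars of 1 standard error and filled points for those called by limma. Red diamonds are ssc-miR-26a (0.53) and ssc-miR-101 (1.48), shown without error since they were chosen on this contrast, and ssc-let-7c and ssc-miR-214 are the filled points, both below 0.

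The named miRNAs with profiles most like those of the 2 were sought among 185 with a mean of at least 10 RPM. The measure was the root mean square difference between centred log2(RPM + 1) profiles over the 6 libraries, which share their library totals. Since likeness chose these miRNAs, they are given here without a test, and the p-value of ssc-miR-340 below belongs to the MITF list. The closest to ssc-miR-26a were ssc-miR-140-3p (0.08), ssc-miR-340 (0.08), ssc-miR-145-3p (0.10), ssc-miR-374a-3p (0.10) and ssc-miR-194a (0.13), against a median of 0.48 over the 185. ssc-miR-140-3p, known from cartilage, stood in white skin at 2049 RPM (S02), 1088 RPM (S06) and 1459 RPM (S07), and in black skin at 2060 RPM (S03), 2195 RPM (S04) and 2225 RPM (S05). It had the same order of groups as ssc-miR-26a, with S02 beside the black libraries, a likeness for which it was chosen.

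ssc-miR-340, known to bind the MITF message, stood in white skin at 375 RPM (S02), 241 RPM (S06) and 289 RPM (S07), and in black skin at 411 RPM (S03), 416 RPM (S04) and 465 RPM (S05). It is also in the MITF list, where its difference of 0.53 did not pass (limma, adjusted p = 0.154). It was higher in each black library than in each white one, and S02 was the highest white library, a likeness for which it was chosen.

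ssc-miR-101 had no such close match. The nearest were ssc-miR-27b-5p (0.36), ssc-miR-374a-5p (0.47), ssc-miR-542-3p (0.50), ssc-miR-374b-5p (0.57) and ssc-miR-126-5p (0.58), against a median of 1.01. ssc-miR-27b-5p, the scarcer arm of the miR-27b hairpin, stood in white skin at 129 RPM (S02), 46.3 RPM (S06) and 56.3 RPM (S07), and in black skin at 248 RPM (S03), 152 RPM (S04) and 182 RPM (S05). S06 was lowest and S02 was the highest white library, a likeness for which it was chosen. ssc-miR-26a and ssc-miR-101 differed from each other by 0.62, which put ssc-miR-26a at place 10 from ssc-miR-101, and ssc-miR-101 at place 142 from ssc-miR-26a. The measure takes in the size of the changes, which was larger for ssc-miR-101.

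**Figure D5:**
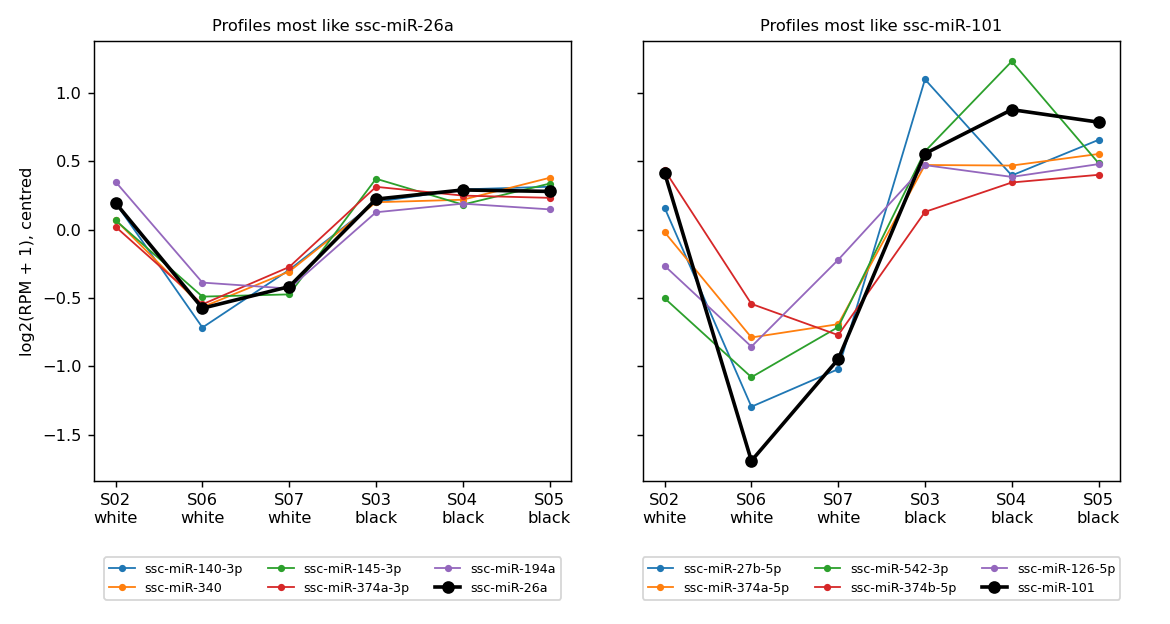
Centred log2(RPM + 1) (y axis) in the 6 libraries (x axis) for ssc-miR-26a (left, black line) and ssc-miR-101 (right, black line), each with the 5 named miRNAs of most similar profile. Lines join the values of a miRNA and imply no order of libraries. The profiles at left lie within a narrow band, with root mean square differences of 0.08 to 0.13, and those at right spread more widely, with 0.36 to 0.58.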

How the data were processed

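The authors deposited 1 table of miRNA levels in RPM, reads they had scaled to the library's total. No label names the unit, which was inferred because every library adds up to 1e+06. The submitters' processing notes name Bowtie (no version) and the pig build Sscrofa11.1 but not what each was used for, and for the counting tool, the miRNA database and any filter the entry is: not given in the sources used here. Whole reads were recovered, since 100% of values in each library were multiples of the value of a single read within 0.001. All 6 columns were used.

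Groups were the skin colours in the labels. The main test was limma 3.58.1 (R 4.3.3), with its prior variance allowed to follow mean level, on log2(RPM + 1) of black against white skin, over the 454 miRNAs kept by edgeR's filterByExpr (minimum count 10, minimum total 15), with Benjamini-Hochberg adjustment over all of them and a threshold of 0.05. Fold changes on this scale understate those of scarce miRNAs. Alternatives were pseudocounts of 0.1 and 10, 2 other filters, TMM and RLE factors, scaling over named miRNAs alone, edgeR 4.0.16, DESeq2 1.42.0 and limma-voom on recovered reads, and leaving out each library.

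The 2 miRNAs and the lists were chosen with earlier results of these data known. Named besides them are the called and 6 most abundant rows of the EZH2 and MITF lists, neighbours in mean level and the 5 most similar profiles. ssc-miR-144 and the marker miRNAs are outside this rule. Mature sequences were not used here, so rows were not matched by seed.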

Additional observations from a re-analysis of the deposited data

How the results depend on the processing

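The log2 difference of ssc-miR-26a ranged from 0.44 to 0.53 over 8 other settings and from 0.38 to 0.76 with 1 library left out, and that of ssc-miR-101 from 1.21 to 1.48 and from 1.01 to 2.06. Their log2 ratio differed between colours by -0.95 to -0.74 over 5 settings and by -1.30 to -0.63 with 1 library left out. None of these values changed sign. With 1 library left out that could not happen, since the groups did not overlap for either miRNA or for their ratio. Over the other settings none of the values moved by more than 1 pooled SD between libraries. Leaving out 1 of 3 libraries cannot move a difference that far, so that limit says nothing about the left-out libraries. Over all miRNAs DESeq2 called 52 and edgeR 30 in place of 32, and leaving out 1 library gave 7 to 41 calls. In the EZH2 list 1 row was called with no filter on low counts, where ssc-miR-214 did not pass (adjusted p = 0.0845), and 0 to 3 with 1 library left out. The MITF list had 0 calls under each of these alternatives. Scaling over named miRNAs alone shifted the median of the 242 named by -0.09, with ssc-miR-26a at 0.44 and ssc-miR-101 at 1.39. The cause of these changes was not tested. No paired analysis was possible because the labels do not say whether any white and black libraries come from the same animal. Any such pairing was left out of the tests. The 3 libraries of each group limit the precision more than depth does.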
